A study of Mus musculus with 8 samples.

Results

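The genes described here were Srebf2, Insig1, Hmgcs1, Idi1, Fdps, Sqle and Lss, a set of cholesterol synthesis genes and targets of the transcription factor SREBP2. They were chosen by gene symbol, and all 7 were found once among the 19348 genes of the deposited tables. RNA-seq had been carried out on liver and epididymal white adipose tissue (eWAT) of male C57BL/6 mice aged 12 weeks, kept on a normal diet and fasted for 16 h. Each tissue had 2 libraries labelled Crtc1-/- and 2 labelled Crtc1+/+, 8 libraries in all, called labelled -/- and labelled +/+ from here on. CRTC1 is a coactivator of CREB, a transcription factor that responds to cyclic AMP. The knockout is whole-body: guide RNAs for exons 2 and 4 of Crtc1 were used with CRISPR/Cas9, and heterozygous mice were inter-crossed. The study's methods describe 2 mice of each genotype for both tissues, while the labels do not say which liver and eWAT libraries came from one mouse. The comparisons asked how the set differed between genotypes within each tissue, whether that difference itself differed between the tissues, and how the set differed between tissues within a genotype.

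SREBP2, the product of Srebf2, is made as a membrane protein of the endoplasmic reticulum. When sterols are low, its escort SCAP takes it to the Golgi, where proteases release the part that enters the nucleus and turns on genes of cholesterol synthesis and uptake. INSIG1 holds SCAP in the endoplasmic reticulum when sterols are plentiful, and Insig1 is itself a target of SREBP2. HMGCS1 makes HMG-CoA early in the mevalonate pathway, IDI1 interconverts the isoprene building blocks, and FDPS joins them into farnesyl diphosphate. SQLE epoxidizes squalene, a rate-limiting step, and LSS closes the sterol ring to give lanosterol. Liver is a main site of cholesterol synthesis, while adipocytes hold a large store of cholesterol and make comparatively little.

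Total counts per library were between 16560085 and 19721481. The libraries did not go with their genotype labels in the level of Crtc1. In eWAT, Crtc1 was at 32.5 and 33.7 CPM (counts scaled to library size, with TMM factors within a tissue) in the libraries labelled +/+ and at 58.5 and 33.6 CPM in those labelled -/-, and in liver at 11.7 and 9.86 against 22.1 and 18.0 CPM. Counts are per gene and do not tell whether exons 2 to 4 were present, so they do not check the deletion, and each library is called by its label. Markers of other tissues moved with genotype in eWAT, as the plot of marker shares shows. The 30 epididymis markers summed to 10.4% and 11.9% of counts in the eWAT libraries labelled +/+ with none of them at 0, and to 0.0106% and 0.00172% in those labelled -/-, where 9 and 8 of the 30 were at 0. The 16 adipocyte markers went the other way, at 0.296% and 0.464% of counts in the former and 5.21% and 2.66% in the latter, while the 4 liver libraries held between 0.161% and 0.302%. The 15 hepatocyte markers summed to 20.3% to 24.3% in the liver libraries, to 0.0783% to 0.659% in 3 of the 4 eWAT libraries, and to 10.7% in eWAT labelled -/- replicate 2. Of the other lists, the 10 markers of testis and steroid-making cells (0.0414% to 0.111% in eWAT labelled +/+ against 0.00931% to 0.0217%) and the 8 of smooth muscle (0.334% to 0.583% against 0.0826% to 0.150%) were higher in eWAT labelled +/+. The 8 of endothelium (0.0319% to 0.0326% against 0.206% to 0.397%) and the 8 of macrophages (0.0126% to 0.0233% against 0.0354% to 0.0788%) were lower there, and the fibroblast markers overlapped. In bulk tissue, fewer cells of a type and less RNA per cell cannot be told apart.

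**Figure D1:**
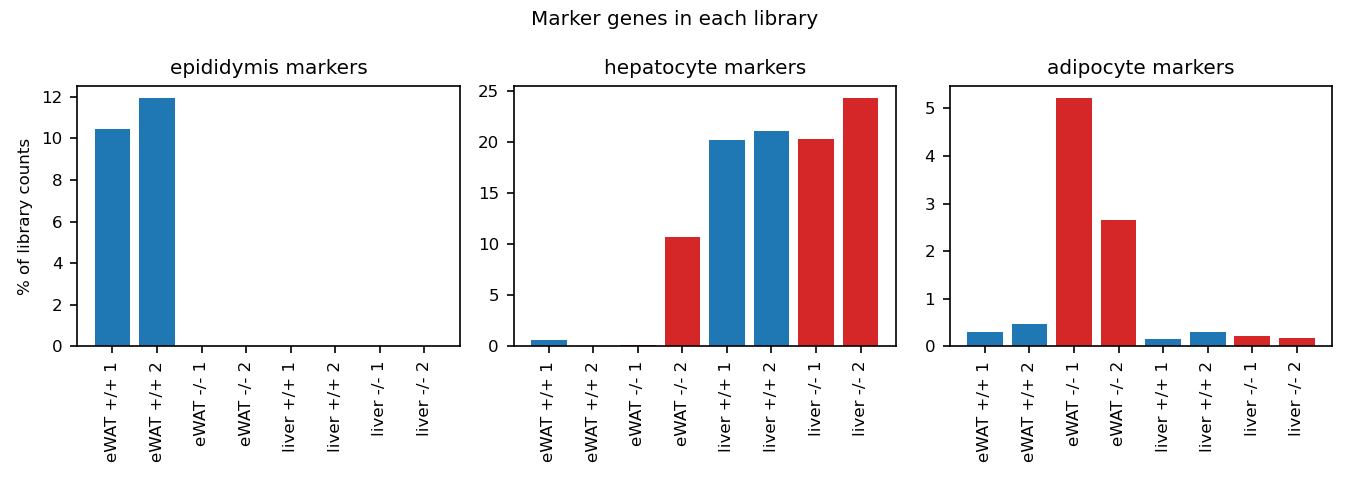
Summed counts of epididymis (30 genes), hepatocyte (15) and adipocyte (16) markers as a percentage of each library's counts (bars, 1 per library; blue, labelled +/+; red, labelled -/-). Epididymis markers stood at 10.4% and 11.9% in the eWAT libraries labelled +/+, hepatocyte markers at 10.7% in 1 eWAT library labelled -/-.

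Where the members lie bears on how their reads could be counted. In RefSeq's annotation of GRCm38.p6, Srebf2 (NCBI Gene 20788) spans chr15:82147269-82205379 on the plus strand and holds the microRNA gene Mir33, and Sqle (20775) spans chr15:59315092-59331193 on the plus strand. Insig1 (231070) lies at chr5:28071412-28078662, Hmgcs1 (208715) at chr13:119690351-119708260, Idi1 (319554) at chr13:8885606-8892396 and Lss (16987) at chr10:76531565-76557139, all on the plus strand, and Fdps (110196) at chr3:89093588-89101967 on the minus strand. In GENCODE, Srebf2 also shares its strand and part of its span with Gm49502, and Fdps with Gm43738 and Gm22935. Hmgcs1, Idi1 and Lss overlap the opposite-strand genes Gm48342, Gm48574 and 4930483K19Rik there. Whether counting used strand is not given in the sources used here, so reads of these partners could have been counted with them. Idi1 was the member whose counts were not whole numbers, in 7 of 8 libraries.

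The 250 bases before the start of a gene were searched for the letters of known control elements, since the set is named for SREBP2 and the study for a CREB coactivator. RefSeq promoter windows of GRCm38.p6, reaching 250 bases before and 50 bases after the start, were at hand for 5 of the 7 members (not Fdps or Sqle). They were searched on both strands for TCACNCCAC, the core of a sterol regulatory element, for CACGTG, an E-box, for CCAAT, the NF-Y box, for TGACGTCA, a full cyclic AMP response element, and for TGACG, a shorter form that is part of it. The sequences before the start of the 3 members that held more than the NF-Y box are printed 5′ to 3′ on the plus strand, with every match on either strand in capitals (CCAAT reads ATTGG and TGACG reads CGTCA on the opposite strand).
Srebf2, chr15:82147019-82147268: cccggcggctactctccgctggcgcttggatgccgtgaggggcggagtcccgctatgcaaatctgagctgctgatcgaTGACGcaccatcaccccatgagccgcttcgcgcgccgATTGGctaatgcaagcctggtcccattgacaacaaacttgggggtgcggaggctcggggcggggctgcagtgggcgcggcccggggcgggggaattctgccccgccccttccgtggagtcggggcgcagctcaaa
Insig1, chr5:28071162-28071411: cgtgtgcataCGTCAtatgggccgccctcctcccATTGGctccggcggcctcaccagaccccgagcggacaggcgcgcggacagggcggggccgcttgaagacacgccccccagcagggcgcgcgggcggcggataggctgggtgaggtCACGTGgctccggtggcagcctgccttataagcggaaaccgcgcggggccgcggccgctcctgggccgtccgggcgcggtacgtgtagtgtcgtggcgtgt
Hmgcs1, chr13:119690101-119690350: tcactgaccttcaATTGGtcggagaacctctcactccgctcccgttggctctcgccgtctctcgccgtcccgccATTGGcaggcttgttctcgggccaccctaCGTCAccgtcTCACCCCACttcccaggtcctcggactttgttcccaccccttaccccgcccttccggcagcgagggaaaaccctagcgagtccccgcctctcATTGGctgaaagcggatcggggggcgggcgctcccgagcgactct
The sterol element core was found in 1 of the 5 members, Hmgcs1, as TCACCCCAC beginning at position -137 from the start, and in 1.24% of all 32851 windows. CCAAT was found in 5 of 5 members against 37.4% of windows, with 4 matches in the window of Hmgcs1. Among the 22 genes of cholesterol synthesis, 16 of the 17 with a window held CCAAT. The shorter form TGACG stood at -172 in Srebf2, -240 in Insig1 and -147 in Hmgcs1, that is in 3 of 5 members against 20.8% of windows. The E-box was found in Insig1 at -101 and in 7.15% of windows, and the full element TGACGTCA in 0 of 5 members and 1.79% of windows. These matches are letters in a window of fixed length and say nothing of binding.

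In eWAT, all 7 genes had lower mean CPM in the libraries labelled -/- than in those labelled +/+, and 2 of them, Fdps and Sqle, passed the test as lower. The median log2 fold change of the 7 was -1.34, against -0.05 over the 15391 genes tested, of which 51.5% had a negative one. With a library left out the median of the 7 lay between -1.91 (without -/- replicate 2) and -0.70 (without +/+ replicate 2). Calls were made by edgeR's quasi-likelihood test at an adjusted p under 0.05 (Benjamini-Hochberg over all genes tested), and 5.54% of genes tested were called lower. Together the 7 genes took 0.0459% and 0.0701% of counts in eWAT labelled +/+ and 0.0217% and 0.0201% in eWAT labelled -/-.

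**Figure D2:**
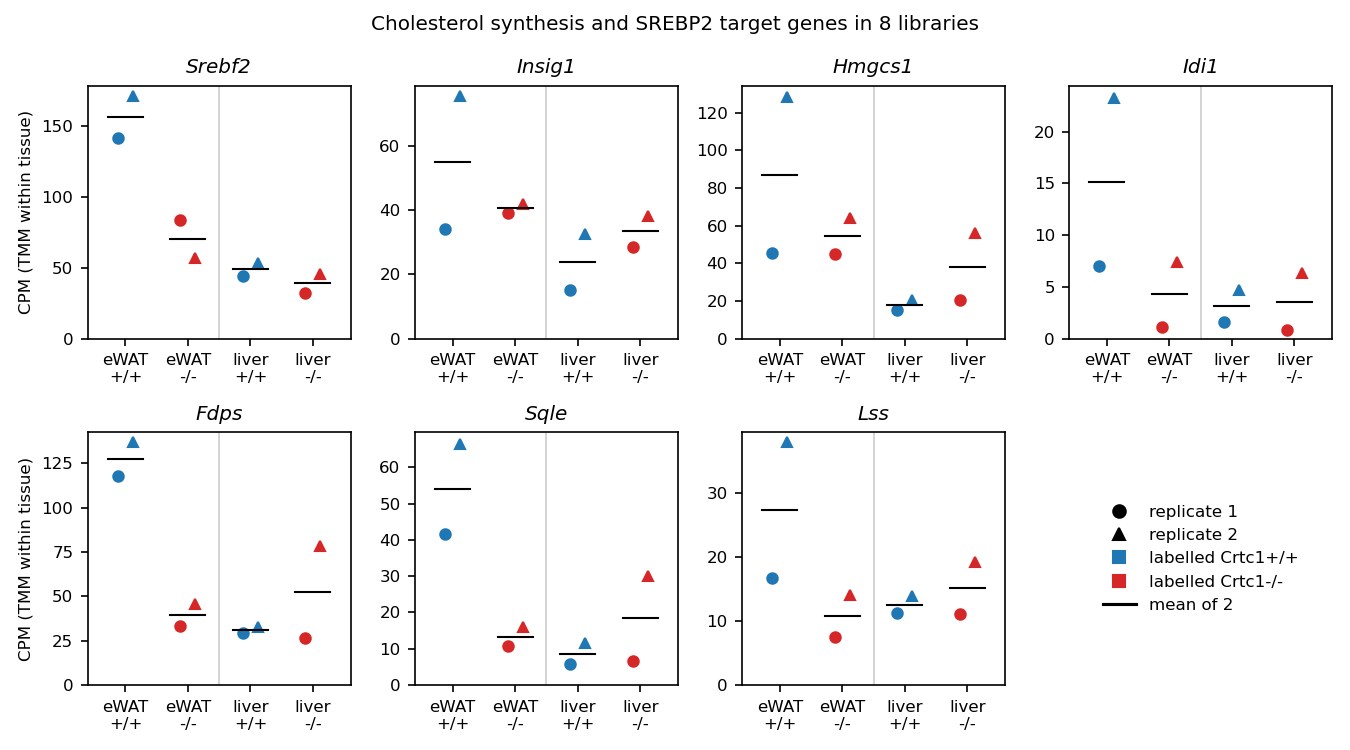
CPM (TMM within tissue, linear axis from 0) of each of the 7 genes in every library (circles, replicate 1; triangles, replicate 2; bars, mean of 2; blue, labelled +/+; red, labelled -/-). In eWAT the red points of Srebf2, Fdps, Sqle and Lss all lie below the blue ones, and in liver the groups overlap for every gene.

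Srebf2 itself was at 142 and 171 CPM in eWAT labelled +/+ and at 83.9 and 56.8 CPM in eWAT labelled -/-. The groups did not overlap, yet the difference did not pass the test (log2 fold change -1.16, SE 0.33; edgeR's quasi-likelihood test, adjusted p = 0.0821). DESeq2 called Srebf2 lower (adjusted p = 0.00467), with 30.0% of genes called in either direction. So did edgeR's test on all 8 libraries in 1 fit (adjusted p = 0.0215), which called 3861 of 15587 genes. Other scalings and filters, limma and the replicate block did not. Groups stood apart in this direction for 4 of the 7 genes and for 35.4% of all genes tested. Insig1, the retention factor, was at 34.1 and 75.7 CPM against 39.2 and 42.0 CPM, both libraries labelled -/- lying within the range of the others (log2 fold change -0.44, SE 0.44; adjusted p = 0.515).

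Of the enzymes of the mevalonate and isoprenoid steps, Hmgcs1 was at 45.3 and 128 CPM in eWAT labelled +/+ and at 44.7 and 64.1 CPM in eWAT labelled -/-. The wide gap between the libraries labelled +/+ exceeded the difference of means, and the fold change did not pass (log2 -0.67, SE 0.56; adjusted p = 0.424). Idi1, the least counted member, was at 7.02 and 23.3 CPM against 1.15 and 7.42 CPM, where the lower library labelled +/+ and the higher one labelled -/- overlap (log2 fold change -1.83, SE 1.06; adjusted p = 0.274). Fdps, the enzyme at the branch between sterols and other isoprenoids, was at 118 and 137 CPM against 33.1 and 45.5 CPM. It fell beyond the spread between replicates, by 1.70 on the log2 scale (SE 0.30; edgeR's quasi-likelihood test, adjusted p = 0.0342), in a comparison where both libraries of each group lay close together.

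Of the enzymes that act on squalene, Sqle was at 41.6 and 66.6 CPM in eWAT labelled +/+ and at 10.7 and 16.0 CPM in eWAT labelled -/-. It had the largest log2 fold change of the set, -2.02 (SE 0.41; edgeR's quasi-likelihood test, adjusted p = 0.0434), and no overlap. Lss, the next enzyme, was at 16.7 and 37.9 CPM against 7.53 and 14.1 CPM, apart but not past the test (log2 fold change -1.34, SE 0.57; adjusted p = 0.178). When calls needed a change of more than 1 on the log2 scale and p under 0.01 without adjustment, Fdps and Sqle were again the 2 members called lower, against 7.54% of genes tested.

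Leaving out a library leaves 1 in its group, so whether the calls of Fdps and Sqle hold without it was not tested. Without eWAT labelled +/+ replicate 1 their log2 fold changes were -1.77 and -2.29. Without replicate 2 of that group they were -1.56 and -1.62, and the fold changes of Insig1 and Hmgcs1 turned positive (log2 0.27 and 0.29). With the 30 epididymis markers left out before scaling, Fdps passed (log2 fold change -1.62; adjusted p = 0.0483) and Sqle did not (-1.95; adjusted p = 0.0618). The part of RNA from these other cell types in these differences was not tested. Without eWAT labelled -/- replicate 1, the log2 fold changes of Fdps and Sqle were -1.48 and -1.75. They were -1.98 and -2.38 when the library that held hepatocyte markers was left out.

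In liver, 6 of the 7 genes had higher mean CPM in the libraries labelled -/-, and none passed the test. The median log2 fold change of the 7 was 0.49, against 0.00 over the 11707 genes tested, of which 50.3% had a positive one. By edgeR's quasi-likelihood test 0 of 7 members and 0.0854% of genes tested were called in either direction, 1 member and 17.3% of genes had an unadjusted p under 0.05, and DESeq2 and limma called 0 members. In none of the 7 genes were the groups apart, against 52.1% of genes tested.

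Srebf2 was at 44.3 and 53.3 CPM in liver labelled +/+ and at 32.3 and 45.6 CPM in liver labelled -/-, the member with a lower mean there (log2 fold change -0.33, SE 0.27; adjusted p = 0.550). Insig1 was at 15.2 and 32.5 CPM against 28.5 and 38.3 CPM (log2 0.49, SE 0.36; adjusted p = 0.497). Both genes overlapped between the groups.

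The enzymes shared a pattern in liver, in which replicate 2 labelled -/- stood above the other 3 libraries. Hmgcs1 was at 15.3 and 20.7 CPM in liver labelled +/+ and at 20.4 and 55.9 CPM in liver labelled -/- (log2 fold change 1.08, SE 0.43; unadjusted p = 0.0308 and adjusted p = 0.256 by edgeR's quasi-likelihood test). Fdps was at 29.5 and 32.8 against 26.4 and 78.2 CPM (log2 0.75, SE 0.43; adjusted p = 0.389). Sqle was at 5.70 and 11.6 against 6.60 and 30.1 CPM (log2 1.08, SE 0.60; adjusted p = 0.377). For these 3 genes the second library labelled -/- was the highest and the first lay within or below the range of those labelled +/+. Lss was at 11.2 and 13.9 against 11.1 and 19.2 CPM (log2 0.27, SE 0.32; adjusted p = 0.686). Idi1 was at 1.59 and 4.72 against 0.786 and 6.30 CPM, the libraries labelled -/- lying on either side of the others (log2 0.16, SE 0.80; adjusted p = 0.937).

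A single liver library decided the direction in this tissue. Without liver labelled -/- replicate 1, the log2 fold changes of Hmgcs1, Fdps and Sqle were 1.64, 1.34 and 1.80. That fit leaves 1 library in the group labelled -/-, so whether these genes differ without replicate 1 was not tested. Without replicate 2 of that group, 5 of the 7 fold changes were negative, Fdps, Sqle and Lss among them (log2 -0.24, -0.40 and -0.18), and the median was -0.24.

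The genotype difference in eWAT was more negative than that in liver for 7 of 7 genes, by 0.92 (Srebf2) to 3.15 (Sqle) on the log2 scale, but the test of the difference between tissues called none of them. The median of the 7 interaction terms was -1.80, against -0.21 over 15587 genes, of which 55.6% were negative and 6.94% were called in either direction. With a library left out the median of the 7 lay between -2.36 and -0.89. Without liver labelled -/- replicate 2 it was -0.91, and the term of Idi1 was positive (0.17). Fdps had the smallest p (interaction -2.50, SE 0.70; unadjusted p = 0.00872 and adjusted p = 0.0767 by edgeR's quasi-likelihood test), followed by Sqle (-3.15, SE 1.0; adjusted p = 0.105). For Hmgcs1, which had a wide spread in both tissues, the term was -1.80 (SE 0.87; adjusted p = 0.230). Both Fdps and Sqle had an unadjusted p under 0.05, as did 26.9% of genes, DESeq2 called both, against 13.2% of genes, and limma called Fdps alone. With the replicate number as a block Fdps passed as well (interaction -2.34; adjusted p = 0.0495 by edgeR's quasi-likelihood test), though the labels do not tie the numbers to mice. Within eWAT the same block left neither Fdps nor Sqle called (adjusted p = 0.0587 and 0.0558 by that test). That eWAT fit called 0 of all 15391 genes.

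**Figure D3:**
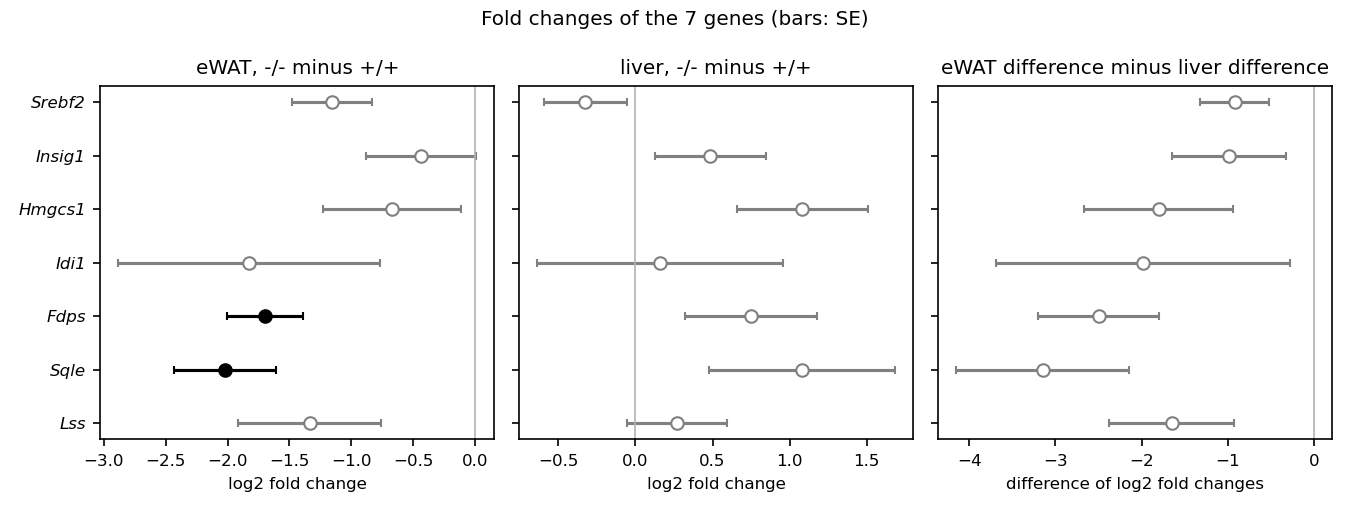
Log2 fold change of each gene, libraries labelled -/- minus those labelled +/+, in eWAT (left) and liver (middle), and the eWAT difference minus the liver difference (right), with bars of 1 SE (n = 2 libraries a group). Filled points passed an adjusted p under 0.05, which was so for Fdps and Sqle in eWAT and for no gene in the other panels.

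Between tissues, the order of the groups was described on 1 scale of CPM with TMM over all 8 libraries. In the libraries labelled +/+, Fdps was at 84.7 ± 7.27 CPM in eWAT and 48.2 ± 3.81 in liver (SD, n = 2), and Sqle at 35.9 ± 11.02 and 13.4 ± 6.56 CPM. By edgeR's quasi-likelihood test 0 of 7 genes differed between eWAT and liver labelled +/+, at an unadjusted p under 0.05 also 0, against 54.9% of genes called in either direction (median log2 difference 0.82 for the 7 and 0.61 for all 15587 genes). DESeq2 called 0 members there, against 7891 of all genes. Limma called 2 or 1 with a pseudocount of 1 or 0.1, against 6751 or 6976 of all genes. In the libraries labelled -/-, all 7 genes were lower in eWAT than in liver (median -1.005, against 0.20 for all genes, of which 44.2% had a negative difference), and 2 passed the test as lower, Fdps (log2 difference -1.68, SE 0.50; adjusted p = 0.0448) and Lss (-1.75, SE 0.52; adjusted p = 0.0462), against 8.89% of genes called lower. The sign and size of these tissue differences depended on the scaling, which moved the members together with all genes. With library-size scaling the median of all genes moved from 0.61 to 2.003 in the libraries labelled +/+ and from 0.20 to 1.33 in those labelled -/-. The median of the 7 moved from 0.82 to 2.22 and from -1.005 to -0.016. Under that scaling 6 members were called higher in eWAT labelled +/+, where 11826 of all 15587 genes were called in either direction. In the libraries labelled -/- 0 members were called, against 7127 of all genes. Srebf2, Insig1 and Hmgcs1 turned positive there (log2 0.70, 0.10 and 0.30), with the shift of all genes.

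Across the 4 groups, eWAT labelled -/- had the lowest mean on this scale for 6 of the 7 genes, and liver labelled +/+ the lowest for Hmgcs1. For Srebf2 the order was eWAT labelled +/+ (104 ± 11.8 CPM, SD, n = 2), liver labelled +/+ (75.7 ± 10.1), liver labelled -/- (60.0 ± 13.9) and eWAT labelled -/- (43.7 ± 7.70). The first and the last of these stood apart from their neighbours, and the liver groups overlapped. Fdps, at 19.4 and 30.7 CPM in eWAT labelled -/-, stood apart from the next group, liver labelled +/+ (48.2 ± 3.81), and so did Lss at 6.95 ± 3.596 CPM from eWAT labelled +/+ (18.1 ± 9.62). For Insig1, Hmgcs1, Idi1 and Sqle no neighbouring groups in the order stood apart.

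Levels were compared between genes per transcript length, as FPKM. Fdps had the highest FPKM of the 7 in each of the 8 libraries, from 24.0 in liver labelled -/- replicate 1 to 136 in eWAT labelled +/+ replicate 2. Idi1 and Lss were the lowest pair in each library, between 0.28 and 9.39 FPKM. In eWAT labelled +/+, Fdps was at 128 ± 10.9 FPKM (SD, n = 2), Srebf2 at 34.7 ± 4.66, Hmgcs1 at 28.8 ± 18.9, Insig1 at 24.4 ± 12.5 and Sqle at 23.1 ± 7.02. Srebf2 overlapped Hmgcs1 and Insig1 in its libraries but not Sqle, which overlapped the other two.

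The spread between the 2 libraries of a group was itself patterned. In all 4 groups the library numbered 2 was above the library numbered 1 in CPM for 6 of the 7 genes (all but Srebf2), against 15.1% of the 11577 genes tested in both tissues. Srebf2 did so in 3 groups and was lower in replicate 2 of eWAT labelled -/-. The gap was widest for Idi1, whose CPM in replicate 2 was 2.97-fold that in replicate 1 in liver labelled +/+, 8.02-fold in liver labelled -/-, 3.31-fold in eWAT labelled +/+ and 6.44-fold in eWAT labelled -/-. For Sqle the folds were 2.04, 4.56, 1.60 and 1.49 in the same order. With 0.5 CPM added to both libraries, the log2 ratio of Idi1 was exceeded by between 0.0854% and 3.53% of genes in each group. The median log2 ratio of the 7 was 0.44, 1.46, 1.15 and 0.52 in these groups, against -0.02, 0.00, -0.01 and -0.22 over all genes. Of the 22 cholesterol synthesis genes, 11 were higher in replicate 2 in all 4 groups. These include the members Hmgcs1, Idi1, Fdps, Sqle and Lss, already counted above. The labels give nothing that the replicate numbers share across groups beyond the number.

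**Figure D4:**
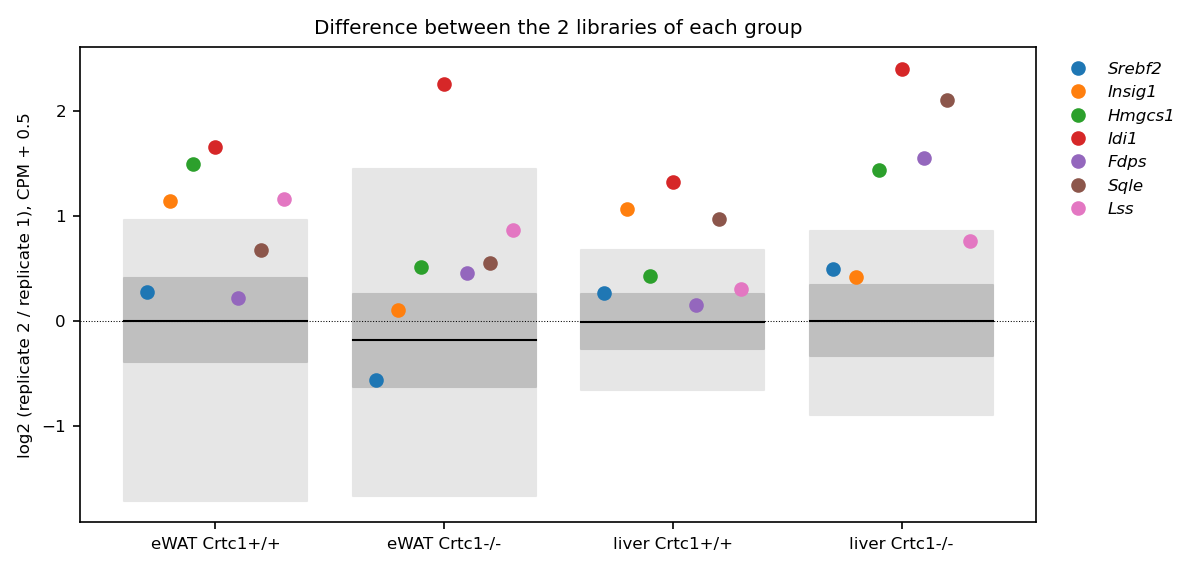
Log2 ratio of replicate 2 to replicate 1 (CPM + 0.5) for the 7 genes (coloured points) in each group, over the range of all genes tested (dark box, middle 50%; light box, 5th to 95th percentile; line, median). All points lie above 0 but Srebf2 in eWAT labelled -/-.

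As a description over the 8 libraries, which share tissue and replicate differences, Pearson's r of log2 CPM between pairs of members had a median of 0.71 over 21 pairs, from 0.30 (Srebf2 with Insig1) to 0.94 (Fdps with Sqle). Likeness was ranked among 7765 genes with a mean log2 CPM of at least 3, a level that Idi1 did not reach. The genes most like the mean profile of Insig1, Hmgcs1, Fdps, Sqle and Lss were N4bp2l2 (r = 0.99), Wdr43 (0.98), Cnbp (0.97), Trip11 (0.97) and Tcea1 (0.97). The nearest other gene of the cholesterol synthesis list was Msmo1, the sterol methyl oxidase, at rank 28 (r = 0.94). Srebf2 had other neighbours, Cse1l (r = 0.95), Tfdp1 (0.95) and Gtf2f2 (0.94).

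The wider sterol genes, 55 in all, were described by role. In eWAT the 22 genes of cholesterol synthesis, 5 of them members, had 15 negative fold changes and a median of -0.73, with 3 called lower and 0 higher. With a library left out that median lay between -1.14 (without -/- replicate 2) and -0.47 (without -/- replicate 1). An unadjusted p under 0.05 was reached by 6 of the 22, against 33.3% of genes tested. The gene called besides Fdps and Sqle was Nsdhl, a dehydrogenase of the demethylation steps after lanosterol. Nsdhl was at 110 and 154 CPM in eWAT labelled +/+ and at 34.2 and 16.9 CPM in eWAT labelled -/-, and fell by 2.36 on the log2 scale (SE 0.46; edgeR's quasi-likelihood test, adjusted p = 0.0388). Of the 12 genes of SREBP processing, which include Srebf2 and Insig1, edgeR called 0, with 3 at an unadjusted p under 0.05, DESeq2 called 2 lower and 1 higher against 30.0% of genes in either direction, and limma called 0 (median -0.13).

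Some genes of sterol uptake, transport and efflux were called higher in eWAT labelled -/-. Of 9 genes of uptake and transport, 4 rose and 0 fell (median log2 fold change 1.52), against 6.65% of genes called higher. These were Lrp1, a receptor of the LDL receptor family (log2 fold change 2.11), Scarb1, the HDL receptor (1.92), Mylip, the ligase that degrades the LDL receptor (1.88), and Npc1, which exports cholesterol from lysosomes (1.52). Mylip is a target of the oxysterol receptor LXR and lowers uptake, so the list holds genes of opposite roles. Of the 12 genes of efflux, esterification and oxysterols, 2 rose and 0 fell (median 3.04): Nr1h3, which encodes LXR alpha, and its target Abcg1, a sterol exporter. Nr1h3 was at 24.0 and 15.2 CPM in eWAT labelled +/+ and at 197 and 222 CPM in eWAT labelled -/- (log2 fold change 3.41, SE 0.37; adjusted p = 0.0170). Abcg1 was at 42.5 and 39.4 against 121 and 142 CPM (log2 1.68, SE 0.27; adjusted p = 0.0275). For Nr1h3, Nsdhl and Lrp1 the difference between tissues passed as well (interaction 3.34, -3.22 and 2.35; adjusted p = 0.0141, 0.0344 and 0.0465 by edgeR's quasi-likelihood test). Adipocyte markers moved in the same direction as these 6 genes, and their part was not tested. Both medians rested on eWAT labelled -/- replicate 2, the library with hepatocyte markers, where Lcat, a plasma enzyme made by liver, was at 653 CPM against 10.2 CPM in replicate 1. Without that library the medians were -0.52 for uptake and -0.76 for efflux, Mylip and Npc1 no longer passed (adjusted p = 0.0555 and 0.0842), and Lrp1, Scarb1, Nr1h3 and Abcg1 did. With either one of the libraries labelled +/+ left out, edgeR's test called 0 genes, as given above.

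**Figure D5:**
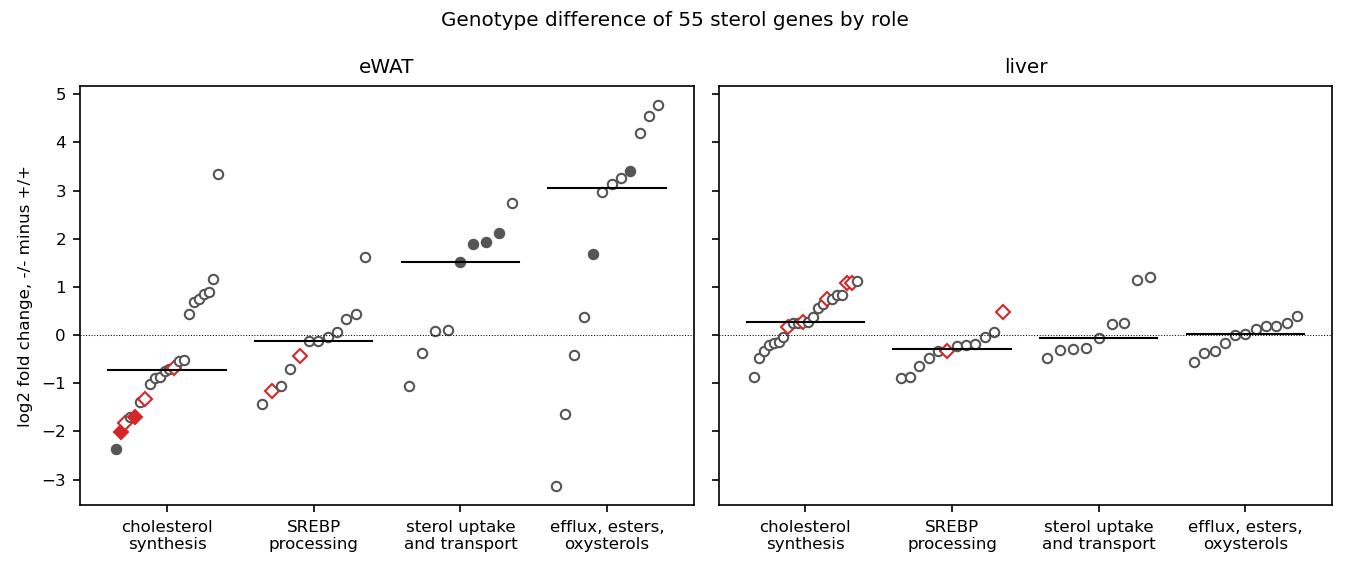
Log2 fold change, libraries labelled -/- minus those labelled +/+, of the sterol genes tested in eWAT (left) and liver (right) by role (red diamonds, the 7 members; grey circles, other genes; filled, adjusted p under 0.05; line, median of the role). In eWAT the median was -0.73 for cholesterol synthesis and 1.52 and 3.04 for uptake and efflux (-0.52 and -0.76 without eWAT labelled -/- replicate 2), and in liver no gene passed.

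In liver 0 of the 54 sterol genes tested were called by edgeR's quasi-likelihood test, against 0.0854% of genes, with 9 at an unadjusted p under 0.05, against 17.3% of genes, and 0 by DESeq2 or limma. The 22 cholesterol synthesis genes had 15 positive fold changes (median 0.27). Among the largest fold changes were those of Stard4, a cytosolic sterol carrier, at 10.01 and 14.1 against 17.9 and 35.2 CPM (log2 1.14, SE 0.36; adjusted p = 0.194), and of Msmo1, at 12.1 and 26.8 against 27.6 and 56.5 CPM (log2 1.12, SE 0.43; adjusted p = 0.250). In both, the groups did not overlap, which held for 25.8% of liver genes in this direction. Between tissues, 31 of the 48 sterol genes other than the members differed in the libraries labelled +/+, against 54.9% of genes tested, led by Soat2, Lcat and Cyp7a1, genes of hepatic cholesterol ester and bile acid synthesis, which were lower in eWAT (log2 difference -7.59, -7.06 and -6.97). In the libraries labelled -/-, 16 of the 48 differed, against 27.8% of genes tested. Of these, Mylip (log2 4.58) and Abcg1 (3.39) were the furthest above liver and Tm7sf2, a sterol reductase, the furthest below (-2.92).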

How the data were processed

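Groups of 2 libraries were compared as labelled, with no library left out. The authors deposited estimated counts per gene, not normalized, and FPKM per gene, which scale by transcript length and library total. The submitters' processing notes name HISAT, Bowtie2 and GRCm38.p6, and the counting tool is not given in the sources used here. Counts were rounded, filtered by filterByExpr, scaled by TMM and tested by edgeR's quasi-likelihood test (edgeR 4.0.16, R 4.3.3) over all genes, within each tissue for genotype and in 1 fit of 8 libraries for tissue and interaction. SE was computed as |log2 fold change| / √F. The scripts were tested on simulated data.

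The alternatives were DESeq2 1.42.0, limma 3.58.1 on log2(FPKM + 1) or log2(FPKM + 0.1), other scalings and filters, epididymis markers removed, a replicate block and each library left out. With 2 libraries against 2, a two-sided exact permutation test cannot give p under 0.333. The study's methods call the libraries of a group biological replicates, and p-values measure the spread between these mice and libraries.

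Named genes were the 7 members, Crtc1, sterol genes with an adjusted p under 0.05 (at most 8 by absolute fold change, or the 3 largest where none passed), and 5 and 3 genes by likeness. A few genes of the lists are not reported individually here. The members and lists were chosen with earlier results of these data known. Figures were made in Python 3.11.15 (pandas 2.3.3, matplotlib 3.10.9).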

Additional observations from a re-analysis of the deposited data

Results flagged for a closer look

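For 3 sterol genes the genotype difference in eWAT differed from that in liver by the test of the difference itself (edgeR's quasi-likelihood test on all 8 libraries): Nr1h3 by 3.34 on the log2 scale (adjusted p = 0.0141), Lrp1 by 2.35 (adjusted p = 0.0465) and Nsdhl by -3.22 (adjusted p = 0.0344). Over the 17 alternatives the adjusted p ranged from 3.38e-08 to 0.0689 for Nr1h3, from 0.000108 to 0.176 for Lrp1 and from 0.00164 to 0.145 for Nsdhl. No member of the 7-gene set passed that test. Groups of 2 libraries are too small for an outlier test.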

How the results depend on the processing

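Among members in eWAT, 2 were lower in the reported test, 3 by DESeq2 and 0 with no filter. Limma on log2(FPKM + 0.1) and the fit with the epididymis markers removed gave 1. Over all genes, 1875 were called in the reported test, 4620 by DESeq2 and 1996 with no filter. That limma and the fit without epididymis markers called 2048 and 1953. Leaving out a library leaves 1 in that arm, which is assumed to vary like the others, so calls of such fits are not counted here. Sterol genes called higher in eWAT were 6, against 10 by DESeq2, 1 with library-size scaling and 3 by limma on log2(FPKM + 0.1). Those called lower were 3, against 9 by DESeq2, 5 with upper-quartile scaling, 1 with no filter and 7 with all 8 libraries in 1 fit. Of all genes, library-size scaling called 1662, upper-quartile scaling 1740 and the fit of 8 libraries 3861. In liver, with a library left out, the median log2 fold change of the 7 members ranged from -0.24 to 1.12.

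Members called in the interaction were 0, against 2 by DESeq2 and 1 by limma at either pseudocount. Sterol genes higher in the interaction were 2, against 8 by DESeq2, 1 with library-size scaling, upper-quartile scaling or no filter, 6 and 4 by limma (log2(FPKM + 1), log2(FPKM + 0.1)) and 0 to 12 with a library left out. Those lower were 1, against 4 by DESeq2, 0 with library-size scaling, 3 and 2 by limma and 0 to 3 with a library left out. Between tissues labelled +/+, members higher were 0, against 6 with library-size scaling and 2 and 1 by limma, sterol genes higher were 10 against 28 with library-size scaling, and sterol genes lower were 21 against 12 to 23 with a library left out. Between tissues labelled -/-, members lower were 2, against 0 with library-size scaling, 1 by limma and 0 to 2 with a library left out. Sterol genes higher there were 5, against 15 with library-size scaling, 3 by limma on log2(FPKM + 0.1) and 3 to 6 with a library left out, and those lower 13, against 24 by DESeq2, 2 with library-size scaling, 8 by limma on log2(FPKM + 0.1) and 3 to 27 with a library left out.

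With the replicate number as a block, 0 of all 15391 genes were called in eWAT, with 5418 at an unadjusted p under 0.05. The 0 members and 0 sterol genes called there therefore say nothing of these genes in particular. In the interaction 1 member was lower, 1 sterol gene higher and 4 lower, against 926 of 15587 genes called. Between tissues, 2 members were higher in the libraries labelled +/+ and 3 lower in those labelled -/-, against 8526 and 4512 genes called. Deviations of same-numbered libraries correlated at 0.0645 in liver and -0.0374 in eWAT between genotypes, and at 0.215 and 0.0170 between tissues within a genotype. Groups that differ in both tissue and genotype, which cannot share a mouse, gave 0.141 and 0.151. No pairing was taken from the numbers.

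Some log2 fold changes turned sign. In eWAT, with a library left out, Insig1 ranged from -0.88 to 0.27 and Hmgcs1 from -1.21 to 0.29, both positive without +/+ replicate 2. In liver, Idi1 turned by limma (-0.0690 and -0.35), with the block (-0.17) and on leaving out -/- replicate 2 or +/+ replicate 1 (range with a library left out, -2.00 to 1.13), and Fdps (-0.24 to 1.34), Sqle (-0.40 to 1.80) and Lss (-0.18 to 0.62) turned without -/- replicate 2. Between tissues labelled +/+, Insig1 turned with library-size (1.38) or upper-quartile scaling (0.17), a mean count of at least 50 (0.13), limma (0.24 and 0.25) and on leaving out eWAT replicate 1 or liver replicate 2 (-0.69 to 0.63). Lss turned with library-size (1.30) or upper-quartile scaling (0.0863), a mean count of at least 50 (0.0497) and without the same libraries (-0.80 to 0.36), and Idi1 by limma on log2(FPKM + 0.1) (-0.0245) and without eWAT replicate 2 (-0.0556 to 2.02). Between tissues labelled -/-, library-size scaling turned Srebf2 (0.70), Insig1 (0.10) and Hmgcs1 (0.30), and leaving out liver replicate 2 turned Hmgcs1 (-1.31 to 0.13) and Idi1 (-3.01 to 1.20), and in the interaction Idi1 (-3.85 to 0.17). The cause was not tested for these changes. At 14.6 counts Idi1 in liver labelled -/- replicate 1 was the shallowest value of the set.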
